A study of Mus musculus with 2 samples.

Results

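Naive-like CD8 T cells were 394 of the 10720 cells in the deposited matrix, 349 of 4472 cells in the DFMO library and 45 of 6248 cells in the water library. They were chosen by measured values, the raw counts of UMIs (unique molecular identifiers, 1 for each captured RNA molecule) in each cell. A member had at least 1 UMI of Cd3d, Cd3e and Cd3g together, at least 2 of Cd8a and Cd8b1 together and at least 2 of Lef1, Tcf7 and Dapl1 together. It had 0 of Cd79a, at most 2 of Lyz2 and 0 over the inhibitory receptors Pdcd1, Lag3 and Havcr2 and the granzymes Gzmb and Gzmk. The members' levels of these 15 rule genes are therefore a description, and genes that follow them from cell to cell were raised or lowered by the same choice.

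The cells came from tumours of MC38, a mouse colon carcinoma line, grown in C57BL/6 mice of an age not given in the sources used here. From day 7 after implantation the mice were given DFMO or water by gavage for 14 days. DFMO (difluoromethylornithine) blocks ornithine decarboxylase, encoded by Odc1, the first step of polyamine synthesis from ornithine. The title of the study names the urea cycle as its question. Cells separated on Ficoll from the tumours of 4 mice were mixed for each treatment and run as 1 single-cell library of RNA 5' ends. Each group was thus 1 library, the spread between mice was not measured, and no difference between the groups could be tested. All intervals are exact 95% intervals that cover counting error only.

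Naive CD8 T cells are cells that have left the thymus and have not yet met their antigen. They circulate through blood and lymphoid organs by means of the chemokine receptor Ccr7 and the sphingosine phosphate receptor S1pr1, live on interleukin 7 through Il7r, and are held quiescent by transcription factors such as Lef1, Tcf7, Foxo1 and Klf2. On activation they lose these molecules and gain effector genes, glycolysis and, in tumours, inhibitory receptors. Memory cells regain part of the naive programme while they keep Cd44, Il2rb and Ccl5.

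The libraries differed in more than these cells. B cells were 29.3% of the DFMO library and 0.848% of the water library, and naive-like CD4 T cells, chosen by the matching rule, were 4.07% and 0.176%. Ptprc-negative cells had no UMI of the leukocyte gene Ptprc or of Cd3d, Cd3e, Cd3g and Cd79a, and at most 2 of Lyz2. They were 14.5% of the DFMO library and 48.9% of the water library, although both libraries are labelled as immune cells. The libraries held 23588037 and 59748244 UMIs in all, and the median UMIs per cell were 2232 in the DFMO library and 6475 in the water library. The barcodes of 37 cells occurred in both libraries, and none of these was a member in both. How far the make-up of the 2 cell mixtures sets the share of naive-like cells cannot be told apart from the treatment.

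Naive-like cells made up 44.6% of the 782 CD8 T cells of the DFMO library (interval 41.1 to 48.2) and 5.76% of the 781 of the water library (4.23 to 7.63). Of all T cells they were 19.6% (17.8 to 21.5) and 3.41% (2.50 to 4.54), and of all cells 7.80% (7.03 to 8.63) and 0.720% (0.526 to 0.963). The intervals of the libraries did not overlap over any of the 3 denominators, but they count cells of 1 library per group and leave out the spread between mice. Checkpoint-high CD8 T cells had at least 2 UMIs of Pdcd1, Lag3 and Havcr2 together, which the rule for members excludes. Of all cells they were 6.28% in the DFMO library (5.59 to 7.03) and 7.79% in the water library (7.14 to 8.49). Of CD8 T cells they were 281 of 782 in the DFMO library and 487 of 781 in the water library. The median member had 2296 UMIs in the DFMO library and 1628 in the water library, against 3791 and 3306 in the other CD8 T cells. A rule that asks for UMIs of some genes and for none of others depends on depth, so each cell was also thinned to 1000 UMIs and the rule applied again, which left out 4 DFMO and 2 water members as too shallow. The share of CD8 T cells was then 31.4% (212 of 675) and 3.53% (22 of 623).

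**Figure D1:**
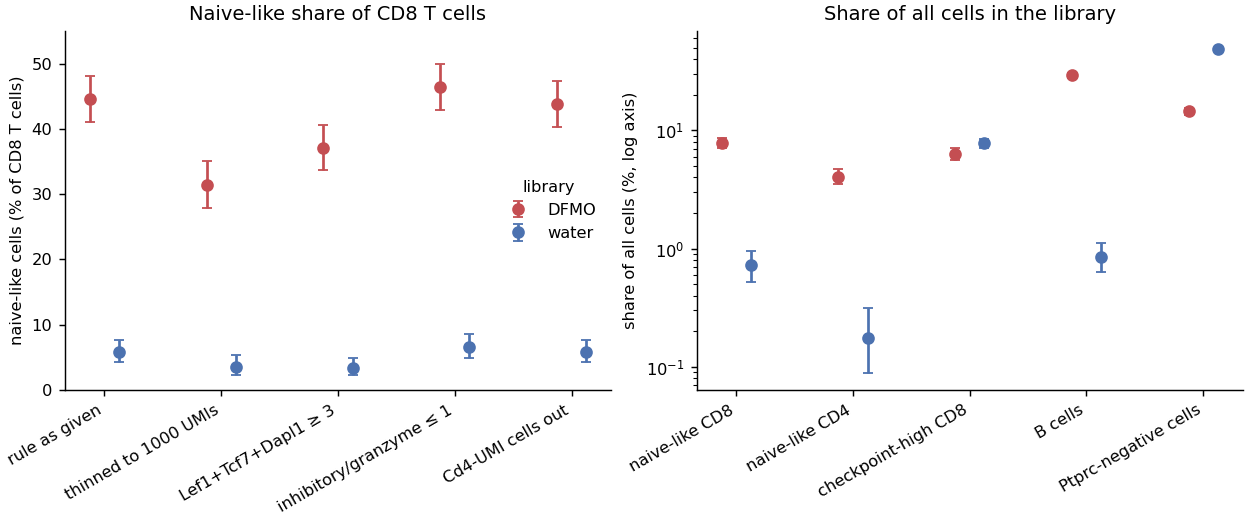
Left: naive-like cells as a percent of CD8 T cells in the DFMO and water libraries, under the rule as given and under 4 other settings. Right: share of 5 groups of cells in each library, on a log axis. Points are shares and bars are exact 95% intervals for counting error, with 1 library per group. The DFMO share of CD8 T cells lies at 31.4% to 46.4% and the water share at 3.33% to 6.53%, and B cells and naive-like CD4 T cells are also higher in the DFMO library.

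The cells nearest to the limits of the rule stood beside 349 members in the DFMO library and 45 in the water library. Members with exactly 2 UMIs of Lef1, Tcf7 and Dapl1 numbered 59 in the DFMO library and 19 in the water library. Just outside, 66 and 15 cells had 1 such UMI and met all other limits. Another 51 and 4 cells had 1 UMI of Cd8a and Cd8b1 together and met all other limits. A further 14 and 6 cells had enough of the naive genes but 1 UMI of an inhibitory receptor or granzyme, and 29 and 26 cells had 2 or more. UMIs of Lef1, Tcf7 and Dapl1 all occurred together in 115 DFMO members and 5 water members.

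Of the markers of a naive CD8 T cell, the rule itself used Cd8b1, Lef1, Tcf7 and Dapl1. Their presence follows from the choice of members and is given as a description. Cd8b1, one chain of the CD8 coreceptor, was at 2733 CPM (UMIs of the gene over all UMIs of the group of cells, scaled alike for every group) in DFMO members and 2217 in water members, and was seen in 348 of 349 and 42 of 45 cells. Cells with UMIs of Lef1 and Tcf7, factors of early T cell identity, were 85.4% and 70.5% of DFMO members and 66.7% and 48.9% of water members, and Dapl1 was seen in 62.5% and 57.8%. Nsg2 and Igfbp4, which the rule did not use, were seen in 61.0% and 44.1% of DFMO members and in 35.6% and 22.2% of water members. After thinning to 1000 UMIs, Nsg2 remained in 35.1% of DFMO members and 20.9% of water members, against 7.04% and 0.979% of the other CD8 T cells. It had 0 UMIs in 1311 and 53 B cells, which with 3 counts as the limit allows shares of cells with a UMI of up to 0.229% and 5.66%.

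Several defining markers of other cell types were not seen in the members of either library. The B cell genes Ms4a1 and Fcmr, the natural killer cell genes Ncr1 and Klra8, the neutrophil genes S100a8 and S100a9, the gamma-delta genes Tcrg-C1 and Trdv4 and the innate-like T cell factor Zbtb16 had 0 UMIs in all 394 members. Of the 8 B cell markers 5 were seen in DFMO members, in sum 467 CPM, and 3 in water members, in sum 345 CPM, against 59883 and 37550 CPM in B cells. Ighm, an immunoglobulin heavy chain gene, gave 355 of those 442 UMIs in the DFMO members, where it was seen in 204 cells, and 32 of 37 in the water members, where it was seen in 22. A UMI of Cd4 was seen in 6 DFMO members and 0 water members. Of the 7 tumour and stroma markers 3 were seen in each library, in sum 174 CPM in DFMO members against 38.8 in the other CD8 T cells, and 345 against 782 CPM in the water library. At least 3 UMIs of these were seen in 3 DFMO members and 1 water member, which held 13073 to 22935 and 5213 UMIs in all. The 4 regulatory T cell markers summed to 155 CPM in DFMO members, where all 4 were seen, and 289 CPM in water members, where Foxp3 and Il2ra were at 0, against 539.7 and 543 CPM in the other CD8 T cells. The NKT or innate-like list was at 42.3 and 65.2 CPM in members against 31.9 and 34.7 CPM, in 39 and 3 cells. The gamma-delta list was at 11.6 and 27.9 CPM, the myeloid list at 38.1 and 65.2 CPM, the natural killer cell list at 9.51 and 37.3 CPM and the CD4 T cell list at 43.3 and 9.31 CPM in DFMO and water members. The part of such RNA in the results was not tested.

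In both libraries the members expressed the genes of lymphocyte recirculation at several times the level of the other CD8 T cells. Klf2, which drives transcription of S1pr1, was at 1979.7 CPM in DFMO members and 346 CPM in the other CD8 T cells of that library, and at 1677 and 189 CPM in the water library. The log2 ratio was 2.52 (interval 2.39 to 2.64) and 3.15 (2.91 to 3.39). S1pr1 had log2 ratios of 2.67 and 3.34 and Ccr7 of 2.08 and 3.09. Il7r was at 478 against 129 CPM in the DFMO library and 168 against 58.8 CPM in the water library, with log2 ratios of 1.89 and 1.51.

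Of the naive and recirculating list, 19 of 20 genes with at least 30 UMIs were higher in DFMO members than in the other CD8 T cells and 15 were at least 2 times higher. The median log2 ratio was 1.92, and over all 8100 genes 7.23% were at least 2 times higher and the median was 0.06. In the water library 18 of 18 were higher, 13 at least 2 times, with a median of 2.16, and 10.1% of 8584 genes were at least 2 times higher with a median of 0.00. The exception in the DFMO library was Cd28, the costimulatory receptor, at 113 CPM in members and 174 in the other CD8 T cells, a log2 ratio of -0.62. These counts follow from the choice of members and are given as their description.

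The highest lower bounds outside the rule genes belonged to Igfbp4, a binding protein of insulin-like growth factors, and to the genes named with it here. Igfbp4 was at 424 against 49.0 CPM in the DFMO library and 242 against 15.6 CPM in the water library, with log2 ratios of 3.11 (2.80 to 3.43) and 3.95 (3.22 to 4.65). Its gene lies on chromosome 11 of the build mm10, at chr11:99041244-99054392. Tmem108 had log2 ratios of 2.91 and 5.37, Nsg2 of 2.77 and 4.77 and Rflnb of 2.91 and 4.20. Ripor2 had 2.52 and 4.08, Rasgrp2, an activator of Rap1 in integrin signalling, had 2.36 and 2.79, and Klf3, a repressor of the Klf family, had 2.93 and 2.76. Selenop, Ramp1, Klf2 and S1pr1 followed with log2 ratios of 2.48 to 2.67 in the DFMO library. All of these were also higher in the water members than in the other CD8 T cells of that library.

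**Figure D2:**
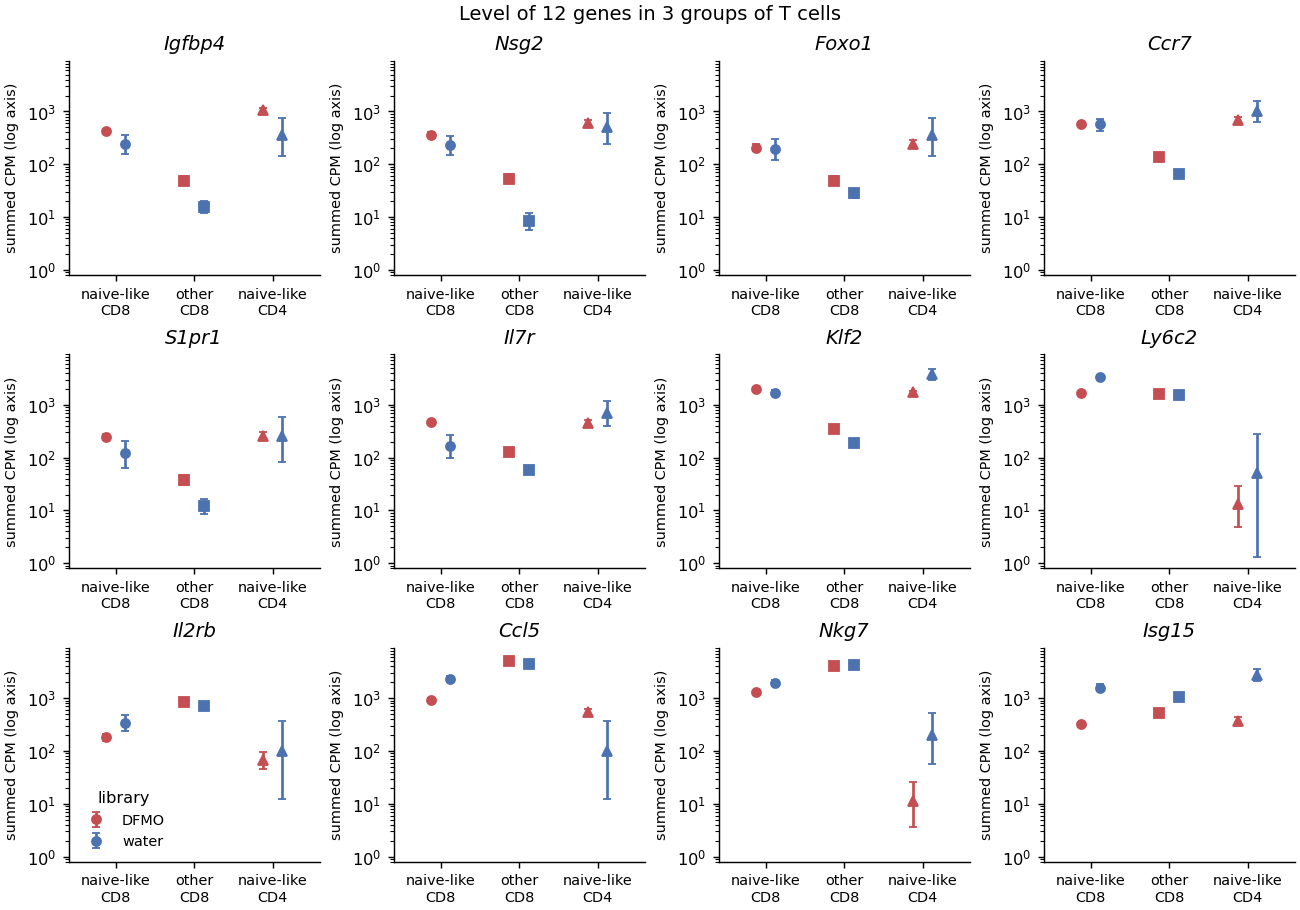
Summed level in CPM on a log axis of 12 genes in naive-like CD8, other CD8 and naive-like CD4 T cells of the DFMO and water libraries. Bars are exact Poisson 95% intervals for counting error, with 1 library per group and 11 naive-like CD4 T cells in the water library. Igfbp4, Nsg2, Foxo1, Ccr7, S1pr1, Il7r and Klf2 are high in both naive-like groups, Ly6c2 and Nkg7 separate CD8 from CD4 cells, and Isg15 is lower in the DFMO library in all 3 groups.

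Several effector genes outside the rule had few or no UMIs in the members. Ccl3, a chemokine of activated T cells, had 2 UMIs in the DFMO members against 2359 in the other CD8 T cells, and 0 against 3077 in the water library. Nrgn had 0 UMIs in the members of both libraries, at least 133-fold lower than in the other CD8 T cells of the DFMO library and at least 19.5-fold lower in the water library, with the floor of 3 UMIs per group. Gzmf, a granzyme, was at least 278-fold and 12.5-fold lower, and Ifitm1 at least 100.1-fold and 11.6-fold lower. Few of the 433 other CD8 T cells of the DFMO library held these genes. Gzmf was seen in 39 of them, with 813 of 1908 UMIs in 1 cell, and Ifitm1 in 51. The costimulatory receptor Tnfrsf9 (4-1BB) was at 22.2 against 660.0 CPM in the DFMO library and at 18.6 against 747 CPM in the water library, with log2 ratios of -4.89 and -5.32. Perforin (Prf1) was at 70.8 against 675 CPM and 27.9 against 587 CPM. Gzmc, Gzma, Spp1, Cd74, Gm156 and Tnfrsf4 complete the 12 genes with the lowest upper bounds. In the other CD8 T cells of the DFMO library, 1 cell held 648 of 1461 UMIs of Gzmc and 1 held 224 of 450 of Gzma. For Cd74, 1 such cell held 802 of 1092 UMIs in the DFMO library and 809 of 1483 in the water library.

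By list, 12 of 12 cytotoxic and cytokine genes were lower in the DFMO members than in the other CD8 T cells, 11 of them at least 2 times, with a median log2 ratio of -5.39. Of the checkpoint and exhaustion genes that the rule did not use, 15 of 17 were lower, among them Tigit with 1 UMI in the members and 744 in the other CD8 T cells, and Tox at 62.4 against 157 CPM. The memory list was lower in 18 of 20 genes with a median of -2.09, and the cell cycle list in 17 of 18 with a median of -2.05. At least 2 times lower were 15 checkpoint and exhaustion genes, 16 memory genes and 12 cell cycle genes. Over all 8100 genes 3699 were lower and 10.8% were at least 2 times lower. In the water library the medians were -2.11 for the cytotoxic list and -2.08 for the checkpoint list with 4 genes at 0 in each set to the floor, and -4.73 and -2.38 with the floor left out (in the DFMO library -5.83 and -3.19). They were -1.05 for the memory list and -0.59 for the cell cycle list. Of all 8584 genes in the water library 4808 were lower and 11.3% were at least 2 times lower.

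Glycolytic enzymes were lower in the members too. All 14 measured genes of the list were lower in DFMO members, 11 at least 2 times, with a median log2 ratio of -1.22. In the water members 14 of 15 were lower with a median of -1.31. Gapdh was at 2442 against 6344 CPM in the DFMO library and 2021 against 4701 CPM in the water library, Aldoa at 823 against 2542 CPM and 1229.5 against 2792 CPM, and the glucose transporter Slc2a1 at 39.1 against 94.3 CPM and 18.6 against 104 CPM. Slc2a1 rested on 2 UMIs in the water members. Genes of ribosome biogenesis were higher in 14 of 14 members of their list in the DFMO library, 1 of them at least 2 times, with a median of 0.59. In the water library 7 of 14 were higher, with a median of 0.06. Over all genes 4401 of 8100 were higher in the DFMO library and 3776 of 8584 in the water library. Npm1, a nucleolar chaperone, was higher in both, at 2915 against 1599 CPM and 2440.3 against 1618 CPM.

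**Figure D3:**
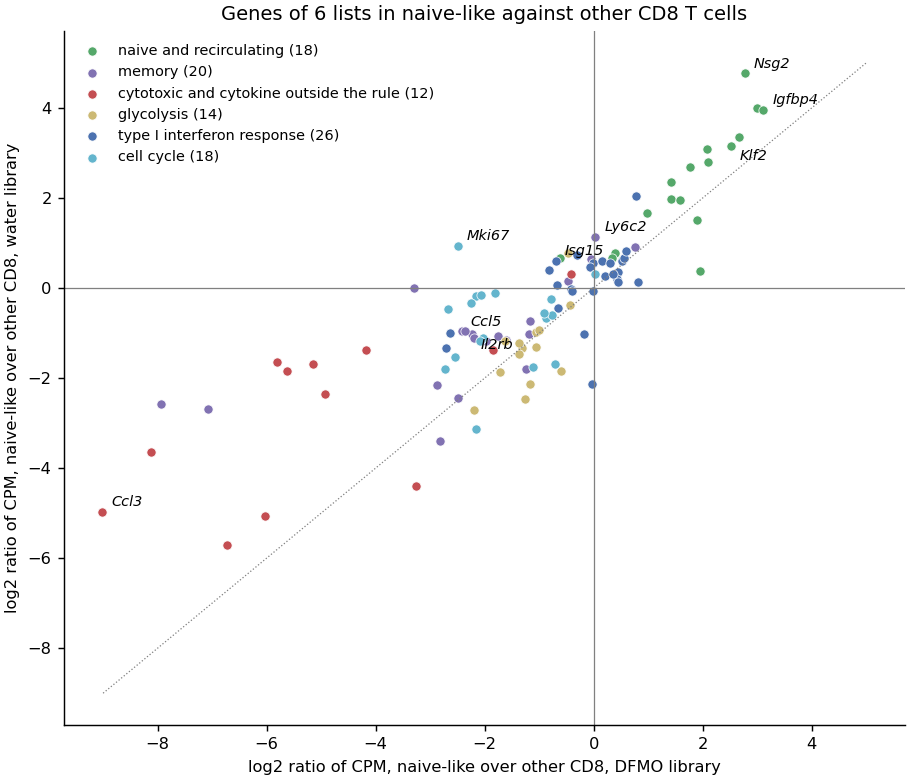
Log2 ratio of CPM of naive-like over other CD8 T cells in the DFMO library (x axis) and in the water library (y axis) for the genes of 6 lists with at least 30 UMIs in each library. Genes with 0 UMIs in 1 group stand at the bound for a floor of 3 UMIs, and the dotted line marks equal ratios. Naive genes lie at the upper right and cytotoxic genes at the lower left, while Isg15 and Mki67 are below 0 in the DFMO library and above 0 in the water library.

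Naive-like CD4 T cells were the nearest group for comparison, and there were 182 in the DFMO library and 11 in the water library, so they were compared in the DFMO library alone. Few genes differed: 2.99% of 5983 genes were at least 2 times higher in the CD8 cells and 3.38% at least 2 times lower. The naive and recirculating list was higher in 6 of 20 genes with a median log2 ratio of -0.22, beside 2843 higher of all 5983 genes. Igfbp4 was lower in the CD8 cells, at 424 against 1068 CPM, and so was Nsg2, at 366 against 607 CPM. Klf2 was at 1979.7 against 1722 CPM.

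The 12 genes with the highest lower bounds of CD8 over CD4 included several known from cytotoxic and memory cells. Ly6c2, a surface protein of the Ly6 family, was at 1662 CPM in the CD8 cells and 13.4 CPM in the CD4 cells, a log2 ratio of 6.96 (5.83 to 8.40). Nkg7, a protein of cytotoxic granules, was at 1316 against 11.2 CPM and was seen in 309 of 349 CD8 members. Plac8 was at 290 against 2.23 CPM, the protease cathepsin W (Ctsw) and the protease inhibitor cystatin F (Cst7) at 724 against 73.6 CPM and 199 against 15.6 CPM, the integrin chain Itgae at 88.8 against 4.46 CPM and the chemokine Xcl1 at 99.4 against 2.23 CPM. Lcn4, Gm43698, Actn2 and Fam241a were also among the 12 highest, and so was Gng11, of which 59 of 129 UMIs lay in 1 cell. On the other side stood Cd4, which the rule for the CD4 cells uses, and Zbtb7b, the factor of the CD4 lineage, at 4.23 against 87.0 CPM. The CD40 ligand Cd40lg was at 4.23 against 165 CPM and Ly6c1 at 40.2 against 486 CPM. The lowest ratios, of the haemoglobin genes Hbb-bs and Hbb-bt, came from 1 CD4 cell with 1769 and 306 UMIs. Ankrd1, Nupr1 and Anxa3 likewise lay mostly in single CD4 cells, and Pdlim4, Gm13546 and Ibtk complete the list.

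The members were not uniform. Ccl5, a chemokine that memory CD8 T cells hold ready and naive cells lack, was seen in 75 of 349 DFMO members (21.5%, 17.3 to 26.2) and 15 of 45 water members (33.3%, 20.0 to 49.0), and 54 and 14 of these had at least 2 UMIs. In B cells, which should lack it and had median depths of 1809 and 1689 UMIs, it was seen in 2.06% and 7.55%. Thinned to 1000 UMIs per cell, the shares were 16.2% and 30.2%. A split of the members by Ccl5 was made after its values were seen, and it is described here without a test. The median depth was 2188 UMIs in the 274 DFMO members without Ccl5 and 2872 in those with 2 or more.

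Of the 19 other genes of the memory list, 13 were higher in the DFMO members with Ccl5 than in those without, with intervals that excluded 0, 1 (Id2, 84.0 against 186 CPM) was lower and 5 had intervals that held 0. Of the 20 naive genes 9 were lower, 0 higher and 11 had intervals that held 0. Among the 13 higher memory genes, S100a6 had 675 of 1059 UMIs with Ccl5 and 280 of 328 without Ccl5 in 1 cell. S100a4 had 43 UMIs in 2 cells with Ccl5 and 45 in 1 cell without. For Anxa2, 46 of 122 and 44 of 82 UMIs lay in 1 cell. Klrk1 rested on 3 UMIs with Ccl5 and 0 without, as no minimum of UMIs was asked for here. The intervals do not cover the clustering of UMIs in single cells. In the water members the counts were 7 higher, 1 lower and 11 with intervals that held 0 for the memory genes, and 1, 6 and 13 for the naive genes. The lower memory gene there was S100a6, with 235 of its 247 UMIs without Ccl5 in 1 cell. Several water values rested on very few UMIs, such as Il18r1 with 3 and 0 and Klrc2 with 0 in both groups. The same counts over all genes are not given here, so these have no background share beside them. In the DFMO members Cd44, the hyaluronan receptor of activated and memory cells, was at 99.3 CPM with Ccl5 and 23.4 CPM without. The chain Il2rb of the interleukin 2 and 15 receptors was at 359 against 115 CPM, the chemokine receptor Cxcr3 at 202 against 54.1 CPM and the factor Eomes at 103 against 42.4 CPM. Il18r1 and Il18rap, chains of the interleukin 18 receptor, were at 49.6 against 11.7 CPM and 42.0 against 5.85 CPM. Of the naive genes, Igfbp4 was at 111 against 544 CPM, a log2 ratio of -2.30 (-2.89 to -1.75), Ccr9, which directs T cells to the gut, at 7.64 against 58.5 CPM, and Ccr7 at 386 against 664 CPM. Nsg2 was at 367 and 365 CPM and Il7r at 531 against 457 CPM, with intervals that held 0. Odc1 was at 122 against 52.6 CPM and Ass1, which joins citrulline and aspartate in arginine synthesis, at 221 against 134 CPM.

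No variable segment of the T cell receptor beta chain led in more than 10.5% of the DFMO members or 17.5% of the 40 water members that could be read. The segments describe clonal make-up in the coarse sense that an expanded clone adds all its cells to 1 segment. Of the DFMO members 332 had a Trbv segment with more UMIs than any other, and of the water members 40. The 4 segments leading among the DFMO members are shown by the last 60 bases of their GENCODE M21 transcripts, since their 3' ends carry the start of the hypervariable CDR3 loop. The capitals begin at TGTGCC, the codons of the conserved cysteine and the alanine after it.
Trbv12-1: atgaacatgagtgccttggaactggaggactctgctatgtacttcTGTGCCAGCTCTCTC
Trbv13-2: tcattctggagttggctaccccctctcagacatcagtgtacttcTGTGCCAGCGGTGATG
Trbv19: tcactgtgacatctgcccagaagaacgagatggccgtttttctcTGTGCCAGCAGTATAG
Trbv12-2: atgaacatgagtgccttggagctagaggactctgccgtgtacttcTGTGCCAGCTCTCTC
All 4 lie on the plus strand of chromosome 6 of mm10, Trbv12-1 at chr6:41113550-41114067, Trbv12-2 at chr6:41118851-41119364, Trbv13-2 at chr6:41121396-41121832 and Trbv19 at chr6:41178375-41179048. The segments are alike, and 3.90% of the 31-base words of Trbv12-1, 11.0% of those of Trbv13-2, 10.4% of those of Trbv12-2 and 0 of those of Trbv19 occur in other Trbv transcripts. UMIs of more than 1 Trbv segment were seen in 115 DFMO members and 14 water members.

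Trbv12-1 led in 35 of 332 DFMO members (10.5%, 7.45 to 14.4), Trbv13-2 in 31, Trbv19 in 30 and Trbv12-2 in 29, and 21 segments were used in all. The inverse Simpson index, the number of equally used segments that would give the same unevenness, was 15.6 in the DFMO members and 11.1 in the 40 water members, which used 15 segments and in which Trbv19 led in 7 cells (17.5%, 7.34 to 32.8) and Trbv1 in 5. It depends on the number of cells. In naive-like CD4 T cells of the DFMO library, with 173 cells, it was 14.3. In checkpoint-high CD8 T cells it was 5.89 in 268 DFMO cells and 5.45 in 451 water cells. Weighted by UMIs instead of cells it was 10.2 and 6.56 there, against 14.5 and 11.9 in the members. There Trbv12-1 alone led in 34.7% (29.0 to 40.7) and 37.5% (33.0 to 42.1) of the cells, against 10.5% (7.45 to 14.4) of the DFMO members. These intervals take cells as independent, which cells of 1 clone are not. By UMIs the share of Trbv12-1 was 17.8% and 29.1% of all Trbv UMIs in the checkpoint-high cells and 6.61% in the DFMO members. In the 73 DFMO members with Ccl5 and a leading segment the index was 13.6, against 15.8 in the 259 without Ccl5.

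**Figure D4:**
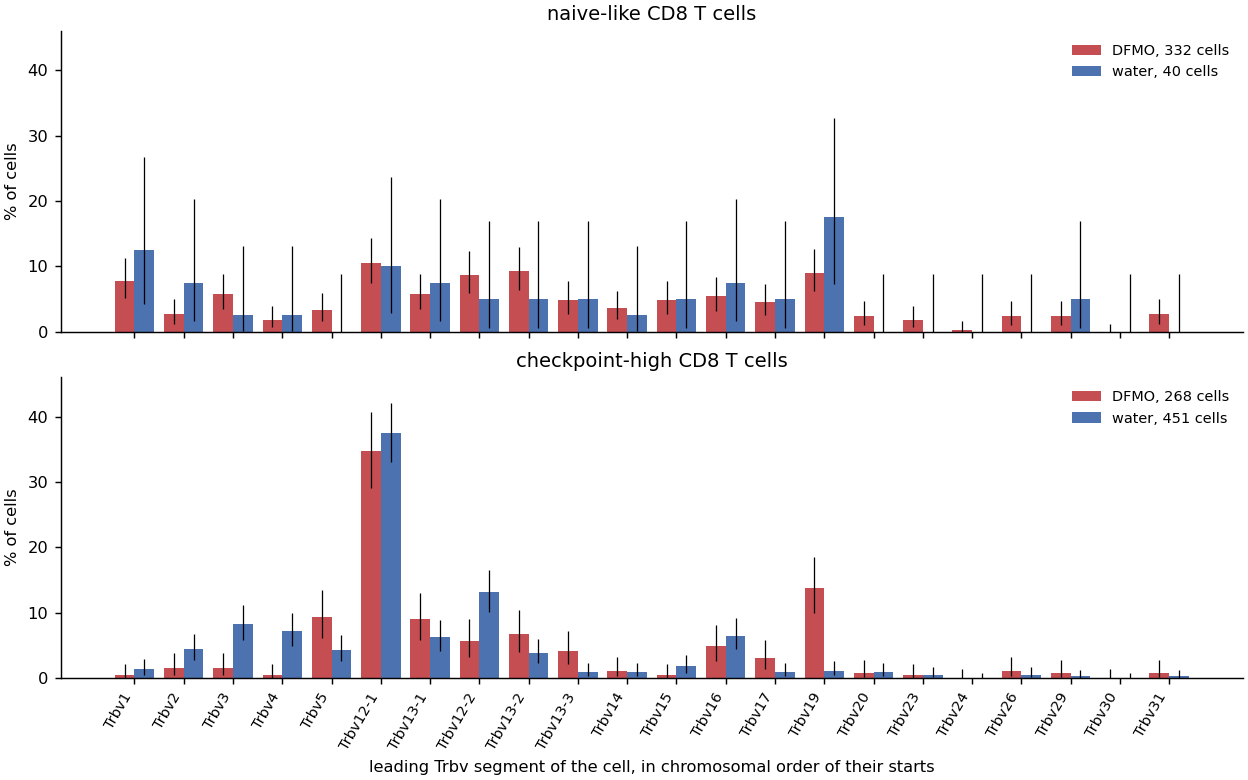
Percent of cells in which each Trbv segment is the leading one, in naive-like CD8 T cells (top) and checkpoint-high CD8 T cells (bottom) of the DFMO and water libraries, in chromosomal order. Lines are exact 95% intervals for counting error. In the members no segment passes 10.5% in the DFMO library, while Trbv12-1 reaches 34.7% and 37.5% of checkpoint-high cells.

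Between the libraries, the DFMO members had more of several naive genes and less of memory, interferon and division genes than the water members. The comparison rests on 946108 UMIs of the DFMO members and 107362 of the water members, so that most water values rest on few UMIs. Of 5032 genes with at least 30 UMIs in both together, 2798 were higher in the DFMO members and 2234 lower. At least 2 times higher were 10.8% and at least 2 times lower 3.82%, and the median log2 ratio was 0.08. Among the naive and recirculating list 16 of 20 were higher, 3 of them at least 2 times, with a median of 0.26. Il7r was at 478 CPM in the DFMO members and 168 CPM in the water members, a log2 ratio of 1.51 (0.83 to 2.28). Actn1, an actin cross-linker, was at 396 and 112 CPM, a log2 ratio of 1.83 (1.0 to 2.79), and S1pr1 at 244 and 121 CPM, a log2 ratio of 1.01 (0.21 to 1.94). Igfbp4 (0.81, 0.23 to 1.44) and Nsg2 (0.65, 0.06 to 1.30) were higher as well, while Ccr7, Foxo1 and Satb1 had intervals that held 0 at log2 ratios of 0.05, 0.08 and 0.23. Cd28 was lower, at 113 and 214 CPM. In the other CD8 T cells 19 of 19 genes of this list were higher in the DFMO library, with a median of 0.87, beside 5013 higher of all 9515 genes.

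The memory list was lower in 12 of 15 genes, 3 of them at least 2 times, with a median of -0.55. Ccl5 was at 931 CPM in the DFMO members and 2301 CPM in the water members, a log2 ratio of -1.30 (-1.51 to -1.10). Ly6c2 was at 1662 and 3344 CPM (-1.01, -1.18 to -0.84), Il2rb at 183 and 345 CPM (-0.91, -1.43 to -0.36) and Nkg7 at 1316 and 1928 CPM (-0.55, -0.76 to -0.33). Cd44 was at 44.4 and 55.9 CPM with an interval that held 0. Without the members that carried Ccl5, chosen after seeing the data, the median of the list was -0.11. In the other CD8 T cells it was 0.12.

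Genes of the type I interferon response were lower in 17 of 23 measured members of their list, 9 of them at least 2 times, with a median of -0.83. Interferon signals through receptors and factors that include Stat2 and Irf9 to a DNA element shared by its target genes. Isg15, a ubiquitin-like protein, was at 320.3 CPM in the DFMO members and 1583 CPM in the water members, a log2 ratio of -2.31 (-2.58 to -2.03). It was seen in 126 of 349 and 26 of 45 cells, and after thinning in 21.4% and 51.2%. Ifit1, which binds foreign RNA, and Ifit3 had log2 ratios of -1.69 (-2.21 to -1.14) and -1.76 (-2.39 to -1.10). Bst2, which tethers budding virus, had -1.48 (-1.79 to -1.17). Irf7, Ly6a, Isg20, Usp18 and Oasl2 were the other genes at least 2 times lower. Ifi47 was at 449 and 447 CPM and Gbp2 at 123 and 112 CPM, with intervals that held 0. The list median was -0.19 without the members that carried Ccl5 and -0.38 with at least 3 UMIs of Lef1, Tcf7 and Dapl1, and Isg15 stayed at -2.16 and -2.0. In other cells of the 2 libraries the list median was -0.17 in other CD8 T cells, -1.05 in B cells and 0.22 in Ptprc-negative cells.

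Promoters of 4 of these genes are shown because they hold the interferon-stimulated element. The RefSeq table of promoters on GRCm38 (mm10), 250 bases before to 50 after the start, held 7 of the 9 genes that were at least 2 times lower. The motif searched was GAAANNGAAA on either strand, and overlapping matches were counted. It was in 4 of those 7, in 6 of 10 other members of the list with a promoter in the table and in 3.99% of 27025 genes. Each stretch is printed along the gene's strand from 40 bases before the first match to at most 40 after the last, with the matches in capitals.
Isg15: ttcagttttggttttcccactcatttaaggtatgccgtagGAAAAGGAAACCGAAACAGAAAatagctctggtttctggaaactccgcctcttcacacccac
Ifit1: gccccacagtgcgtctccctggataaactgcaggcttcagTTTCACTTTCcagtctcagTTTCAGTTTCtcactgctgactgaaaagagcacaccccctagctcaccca
Ifit3: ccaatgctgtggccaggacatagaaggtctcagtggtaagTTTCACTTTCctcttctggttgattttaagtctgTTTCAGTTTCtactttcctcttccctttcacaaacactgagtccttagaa
Bst2: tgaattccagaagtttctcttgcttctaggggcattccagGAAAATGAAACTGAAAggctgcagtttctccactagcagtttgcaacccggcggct
They lie at chr4:156200835-156200936 on the minus strand (Isg15, 3 matches), chr19:34640745-34640853 (Ifit1, 2 matches) and chr19:34583333-34583456 (Ifit3, 2 matches) on the plus strand, and chr8:71537547-71537642 on the minus strand (Bst2, 2 matches). The motif did not separate the genes that were at least 2 times lower from the rest of the list, since it was in 57.1% of the first and 60% of the second.

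**Figure D5:**
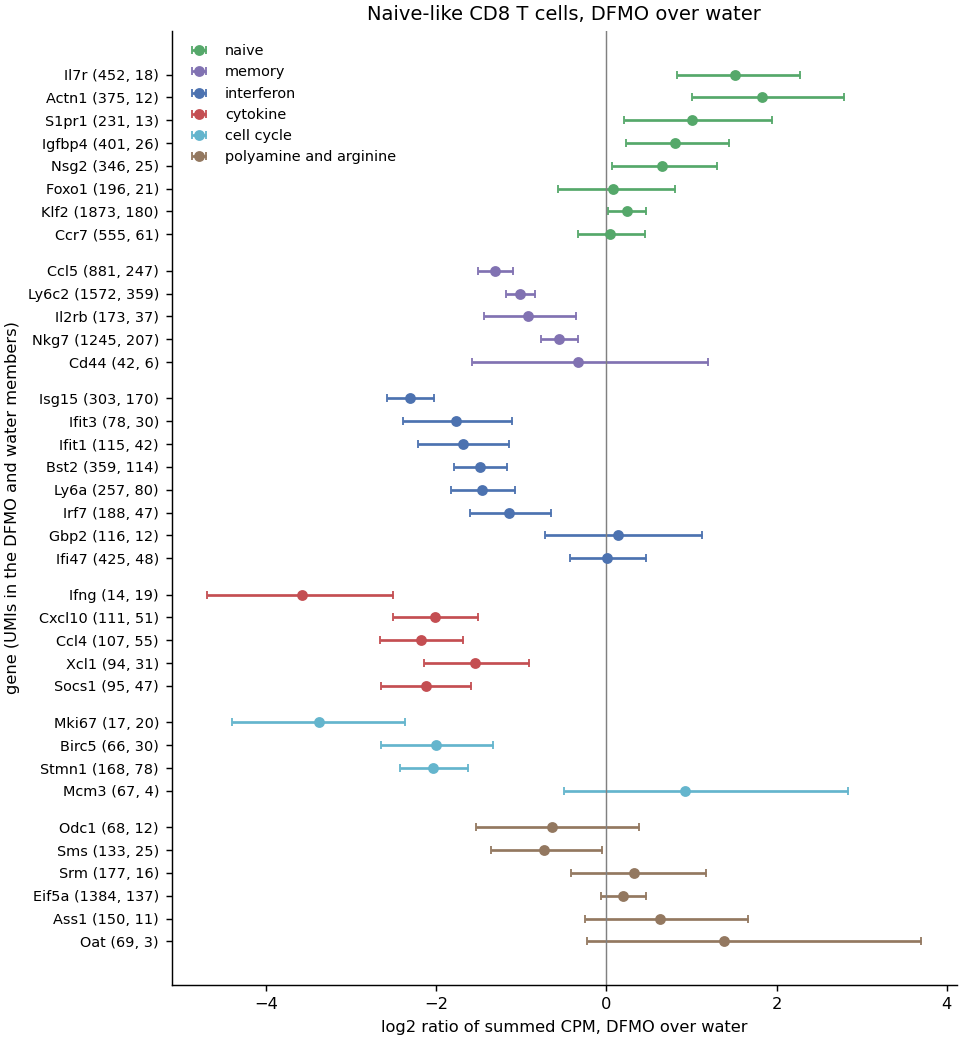
Log2 ratio of summed CPM of the DFMO over the water members for 36 genes of 6 groups, with exact 95% intervals for counting error and the UMIs of each library in brackets. Il7r, Actn1 and S1pr1 lie above 0, and Isg15, Ifit1, Ifit3, Bst2, Ly6a, Irf7 and the memory genes Ccl5, Ly6c2, Il2rb and Nkg7 lie below 0. Odc1, Ass1 and Oat have intervals that hold 0.

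Ifng, the gene of interferon gamma, had 14 UMIs in 12 DFMO members and 19 UMIs in 7 water members, a log2 ratio of -3.58 (-4.69 to -2.51). Cxcl10, a chemokine that interferons induce, was at 117 and 475 CPM (-2.02, -2.51 to -1.51), and Socs1, which damps cytokine signalling, at 100.4 and 438 CPM (-2.12, -2.64 to -1.59). Ccl4 was at 113 and 512 CPM, a log2 ratio of -2.18, but at 0.64 among members without Ccl5. The cytotoxic and cytokine list was lower in 4 of 5 genes with a median of -1.54, which was 0.64 among members without Ccl5 and 0.41 with at least 3 UMIs of Lef1, Tcf7 and Dapl1. Class I antigen presentation was slightly lower in 15 of 17 genes with a median of -0.24, among them B2m at 4193 and 4992 CPM and H2-Q7 at 744 and 1248 CPM. Over all 5032 genes 2234 were lower, and none of the 17 was at least 2 times lower.

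Division genes were held by few members. A UMI of Mki67, Top2a or Birc5 was seen in 13 of 349 DFMO members (3.72%, 2.00 to 6.29) and 6 of 45 water members (13.3%, 5.05 to 26.8). The cell cycle list was lower in 13 of 15 genes, 7 at least 2 times, with a median of -0.82. Mki67 was at 18.0 and 186 CPM, Stmn1 at 178 and 727 CPM and Birc5 at 69.8 and 279 CPM. The mitotic gene Ube2c had 43 of its 83 UMIs in 1 DFMO member and 33 of 45 in 1 water member. Without the members that carried Mki67, Top2a or Birc5, the median of the list was 0.11 and Stmn1 stood at -0.10. The histone gene Hist1h1d, at 18.0 and 121 CPM, was then at 0.13. This setting was added after seeing the data and left out cells by division genes themselves. The move of the list therefore follows in part from the choice.

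The other genes with the highest lower bounds were spread over many cells or held by very few. Ppm1h, a phosphatase, had 68 UMIs in 60 DFMO members and 0 in the water members, which with 3 counts as the limit allows a share of up to 6.67% of water cells with a UMI, and was at least 2.57-fold higher with the floor of 3 UMIs per group. Bbc3, the cell death gene PUMA, had 67 and 0 UMIs (at least 2.53-fold higher) and Cnot3, of the deadenylase complex, 53 and 0 (at least 2.00-fold). Dhx15, a splicing helicase, had 95 and 1 UMIs, with a log2 ratio of 3.43 (0.92 to 8.75), and Mybbp1a had 110 and 2. Son, a nuclear speckle protein, was at 382 and 112 CPM, and Pdcd4, an inhibitor of translation, at 293 and 83.8 CPM. Tm4sf1 and Ctsl had 51 of 77 and 76 of 167 UMIs in 1 DFMO member each. At the low end, 52 of 53 UMIs of H19 in the water library lay in 1 member, and H19 stood at -0.31 without the members that held 3 or more tumour or stroma UMIs. Gm42031 was also among the 12 lowest upper bounds, at 39.1 and 224 CPM.

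The genes of polyamine synthesis, where the target of DFMO lies, and of the urea cycle had few UMIs in the water members, and of those named here Sms was the one whose interval excluded 0. Odc1 was at 71.9 CPM in the DFMO members and 112 CPM in the water members, a log2 ratio of -0.64 (-1.53 to 0.38), from 68 and 12 UMIs. Its gene lies at chr12:17544794-17551505. Of 12 measured polyamine genes 7 were higher and 5 lower, none by 2 times, with a median of 0.06. Over all 5032 genes 2798 were higher, so that being higher was the more common direction. Spermine synthase (Sms) was at 141 and 233 CPM, a log2 ratio of -0.73 (-1.35 to -0.05), and spermidine synthase (Srm) at 187 and 149 CPM with an interval that held 0. Eif5a, which carries the hypusine made from spermidine, was at 1463 and 1276 CPM, 0.20 (-0.06 to 0.46). Arg1, arginase, had 2 UMIs in the DFMO members and 0 in the water members. Ass1 was at 159 and 102 CPM, a log2 ratio of 0.63 (-0.25 to 1.66). The 5 measured genes of the urea cycle and arginine list, Ass1, Oat, Glul, Glud1 and Aldh18a1, were all higher in the DFMO members, 1 of them at least 2 times, with a median of 0.62, and the interval of each held 0.

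Within each library the members differed from the other CD8 T cells in some of these genes. Odc1 was lower in the DFMO members, at 71.9 against 210.4 CPM, a log2 ratio of -1.55 (-1.94 to -1.18), and in the water members it was at 112 against 177 CPM (-0.67, -1.63 to 0.15). Ass1 was higher in the DFMO members, at 159 against 91.6 CPM (0.79, 0.48 to 1.11), and at 102 against 59.1 CPM in the water members with an interval that held 0. It was highest of the 3 groups in naive-like CD4 T cells of the DFMO library, at 424 CPM and in 50.5% of the cells, against 29.5% of the CD8 members. Srm was at 187 against 96.2 CPM in the DFMO library.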

How the data were processed

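Both libraries were deposited by the authors in 1 matrix of unnormalized UMI counts (10720 cells, 17775 genes), and a cell table gives the library of each barcode. Per the submitters' processing notes the tools were Cell Ranger 3.02 and Scanpy 1.4.4 with the build mm10. Which cells and genes were removed beforehand is not given in the sources used here, and the matrix holds 0 mitochondrial and 0 Rpl or Rps genes. The cell table's label Control was read as the water group, the only other group. The labels differ on whether gavage was given daily or more often.

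The members and gene lists were chosen with earlier results of these data known. UMIs were summed per library and group of cells and scaled to CPM, with exact Poisson intervals, exact conditional binomial intervals for log2 ratios and Clopper-Pearson intervals for shares. Genes needed 30 UMIs over both groups, and called means at least 2 times apart. A group at 0 was set to 3 UMIs. The genes named were the 12 with the highest lower bound and the 12 with the lowest upper bound among those with at least 50 CPM in 1 group, without receptor segments and rule genes, the markers, the rule genes and list members whose interval excluded 0 or that define the cell type. Some genes that this rule names are not reported here. With 1 library per group no test, SE or p-value was made. Intervals were run on simulated independent Poisson counts, the model on which they are built. The simulation leaves out UMIs that cluster in single cells, so it cannot show how the intervals cover such genes. Scrublet in scanpy 1.11.5 (assumed rate 0.05) called 51 DFMO cells (1.14%) and 97 water cells (1.55%), none a member. These were kept in the main values. Alternatives were thinning to 1000 UMIs, TMM factors, totals without receptor segments, means over cells, limits of 10 or 100 UMIs and stricter rules. The software was Python 3.11.15, numpy 2.4.6, scipy 1.17.1 and pandas 2.3.3.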

Additional observations from a re-analysis of the deposited data

Results flagged for a closer look

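The log2 ratio of naive-like over other CD8 T cells lay on opposite sides of 0 in the DFMO and water libraries, with both intervals excluding 0, for 16 named or listed genes. The number of genes looked at and the share over all genes are not given here, so the 16 have no background beside them. The difference between the libraries was not tested, since each group was 1 library.

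Below 0 in the DFMO library and above 0 in the water library were Isg15 (-0.70 and 0.60), Mki67 (-2.49 and 0.93), Socs1 (-1.37 and 0.48), Cd28 (-0.62 and 0.67), H2-Q7 (-0.31 and 0.33) and the spermine synthase gene Sms (-0.30 and 0.92). Cd28 and Sms barely passed, with intervals of 0.0004 to 1.28 for Cd28 in the water library and -0.60 to -0.01 for Sms in the DFMO library. Isg15 was at 320.3 CPM in the DFMO members and 520.3 CPM in the other CD8 T cells of that library, and at 1583 and 1044 CPM in the water library. Mki67 rested on 17 UMIs of DFMO members and 20 of water members, seen in 8 and 6 cells.

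Above 0 in the DFMO library and below 0 in the water library were Dnaja1 (0.26 and -0.62), Son (0.44 and -0.83) and Ppm1h (0.62, with 0 UMIs in the water members). The rest were genes seen in 3 to 15 DFMO members each, and their ratios in the DFMO library were 2.37 for Col3a1, 3.03 for Sparc, 3.58 for Ctsl, 3.37 for Tm4sf1, 1.73 for Gng11, 1.92 for Ly6c1 and 0.88 for Nupr1, with ratios below 0 or 0 UMIs of the members in the water library. In the DFMO members 69 of 86 UMIs of Col3a1, 37 of 75 of Sparc, 76 of 167 of Ctsl and 15 of 33 of Nupr1 lay in 1 cell.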

How the results depend on the processing

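No paired analysis was possible because DFMO and water had a single library apiece. The shares lay within the intervals of the main values in 18 of 30 alternatives. Thinned to 1000 UMIs, the DFMO and water shares were 4.85% and 0.360% of all cells, 12.5% and 1.87% of T cells and 31.4% and 3.53% of CD8 T cells. With at least 3 UMIs of Lef1, Tcf7 and Dapl1 they were 6.48% and 0.416%, 16.3% and 1.97%, and 37.1% and 3.33%. The DFMO share was the higher in all of them.

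Counts of genes at least 2 times apart follow the number of UMIs asked for. Against 543 higher and 192 lower in DFMO over water members, a limit of 10 UMIs gave 867 and 618, a limit of 100 gave 70 and 38, and thinning, which leaves fewer cells and UMIs, gave 148 and 61. Leaving out the cell with the most UMIs of each gene in each library, added after seeing the data, gave 846 and 77. Such a cell generally holds a larger part of a gene's UMIs among 45 water members than among 349 DFMO members. The setting therefore raises most ratios of DFMO over water by its design, and the list medians under it as well. It cannot show how far the counts rest on single cells. For naive-like over other CD8 T cells in the DFMO library, 586 higher and 878 lower became 1010.0 and 1331 at 10 UMIs and 213 and 416 at 100. In the water library 868 higher became 1343 and 307.

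The cytotoxic and cytokine list, of 5 genes, had a median log2 ratio of -1.54 in DFMO over water members. It was 0.41 with at least 3 UMIs of the naive genes and 0.64 without members that carried Ccl5, where Ccl4 was also at 0.64. Hist1h1d was at 0.13 without members that carried Mki67, Top2a or Birc5. The cause was not tested. Over all lists and settings 259 medians moved by less than 0.25 and 47 by more, beside the 2 of the cytotoxic list above. Of all 308 medians 29 changed sign, 13 of them with a move of 0.25 or more, among them the checkpoint list from -0.31 to 0.39 with at least 3 UMIs of the naive genes and 0.65 without Ccl5 members, and ribosome biogenesis from 0.19 to -0.55 when thinned. TMM factors shifted naive-like over other CD8 ratios by 0.11 in the DFMO library and 0.16 in the water library. By UMIs instead of cells, the inverse Simpson index of checkpoint-high cells was 10.2 (DFMO) and 6.56 (water) and the share of their 3 leading segments 43.4% in the DFMO library, against 14.5 and 11.9 for the index of the members. The water members limit all ratios: 45 cells and 107362 UMIs.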
